A study of Mus musculus with 15 samples.

Results

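The miR-15, miR-16, miR-195 and miR-497 assays were taken from the miRNA profiles of a pair of mouse pancreatic tumour cell lines. They are all assays whose name, without the species prefix and the assay number, is miR-15a, miR-15b, miR-16, miR-195 or miR-497, on any arm of the hairpin, and there are 8 of them among 584 miRNA assays. They were chosen by name, with earlier results of these data known. αTC1-6 is a line from a mouse glucagonoma and stands for the α cell, and βTC1 is a line from a mouse insulinoma and stands for the β cell, so that each cell type is represented by a single tumour line, grown at passages 20 to 40. The 5 conditions, with 3 independent biological replicates each, were βTC1 without treatment at 24 h, αTC1-6 without treatment at 24 h, αTC1-6 without treatment at 48 h, and αTC1-6 given a cytokine mixture (IL-1β, IFN-γ and TNF-α together) for 24 h or for 48 h. The untreated αTC1-6 samples of 24 h and those of 48 h each serve in several of the comparisons below. The treated samples serve again in the difference of the cytokine effects. The comparisons are therefore not independent of each other.

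MiRNAs of this family are expressed in most tissues. They pair with target mRNAs through the seed, bases 2 to 8 of the mature strand, and they are best known as brakes on the cell cycle and on survival, acting on the mRNAs of D and E type cyclins, of cyclin dependent kinases and of the anti-apoptotic protein Bcl-2. In the mouse pancreas, miR-15a, miR-15b, miR-16 and miR-195 have been linked to the translation of neurogenin 3, the factor that sets endocrine fate. Each hairpin gives a guide strand, here always from the 5′ arm, and a passenger strand, written with an asterisk in the assay names. The guide strands are shown because their common seed is what makes them a family. They were read from RefSeq (build GRCm38.p6), with the seed in capitals.
mmu-miR-15a: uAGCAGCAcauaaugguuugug
mmu-miR-15b: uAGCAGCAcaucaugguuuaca
mmu-miR-16: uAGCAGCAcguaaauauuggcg
mmu-miR-195: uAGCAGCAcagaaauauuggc
mmu-miR-497: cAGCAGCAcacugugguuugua
All 5 guide strands hold the seed AGCAGCA. Behind the seed they fall into closer and more distant pairs. Counted from the 5′ end, miR-16 and miR-195 have the same base at 19 of 21 positions and miR-15a and miR-15b at 18 of 22, whereas miR-16 and miR-497 match at 11 of 22. Whether an assay also reads a close relative was not tested.

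The genes lie in 3 pairs. Mir15a and Mir16-1 are on chromosome 14, with 54 bases between the hairpins, inside the long non-coding RNA gene Dleu2. Mir15b and Mir16-2 are on chromosome 3, with 66 bases between them, inside Smc4, which codes for a subunit of condensin. Mir497 and Mir195a are on chromosome 11, with 241 bases between them. The guide strands were placed at chr14:61632075-61632096 (miR-15a, minus strand), chr3:69009775-69009796 (miR-15b, plus strand), chr11:70235062-70235082 (miR-195, plus strand) and chr11:70234730-70234751 (miR-497, plus strand). The mature miR-16 of chr14:61631936-61631957 and of chr3:69009918-69009939 is the same sequence, so the miR-16 assay cannot tell the 2 genes apart. The passenger strands are shown because the largest difference in the family was found among them, and they share no seed with the guides or with each other.
mmu-miR-15a*: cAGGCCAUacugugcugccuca
mmu-miR-15b*: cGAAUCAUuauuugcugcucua
miR-16-1-3p: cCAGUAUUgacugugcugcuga
miR-16-2-3p: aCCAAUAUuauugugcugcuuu
The name miR-16* does not say which of the last 2 strands the assay reads.

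Levels were read by quantitative PCR on TaqMan cards, card A for the 5 guide strands (1 well each) and card B for the 3 passenger strands (2 wells each). Each well gives a threshold cycle (Ct). ΔCt is that Ct minus the Ct of miR-26a, which is on card A, so that 1 unit of ΔCt is a log2 unit and a lower ΔCt stands for a higher level. All 120 member values had a Ct under 40, the value that undetermined wells carry. Over the samples miR-26a had a Ct from 16.98 to 18.98, and 214 to 337 assays of card A and 174 to 191 of card B had a Ct. Ct values were not spread evenly within a cycle. Of 7590 values, 36.1% fell at a decimal of 0.9 or above, and so did 50.7% of the 75 guide strand values. The part of this in the results was not tested. The duplicate wells of the passenger strands differed by a median of 0.20 cycles over 45 pairs, and 1 pair, that of miR-15a* in replicate 3 of untreated αTC1-6 at 24 h, differed by 2.98 cycles. Among marker miRNAs, the islet miRNA miR-375 had a Ct of 13.4 to 16.0 in all 15 samples. The acinar miRNA miR-217 had a Ct of 24.5 to 27.0 in the 3 βTC1 samples and was undetermined in all 12 αTC1-6 samples. Of the listed acinar miRNAs, miR-216a, miR-216b and miR-217, 3 of 3 had a Ct in every βTC1 sample and 0 of 3 in any αTC1-6 sample of 24 h. At 48 h, miR-216b had a Ct of 30.2 to 36.7 in the 3 untreated αTC1-6 samples and of 31.9 in 1 treated sample, and miR-216a had a Ct of 20.9 in 1 treated sample. RNA was taken from whole cultures, in which fewer cells with a miRNA and less of it per cell cannot be told apart.

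Every member was measured in every condition. Relative to miR-26a, the mean level was highest in βTC1 and lowest in αTC1-6 treated for 48 h for 8 of 8 assays. The share of all assays with both of these ends was not computed. Of all assays tested, 61.5% lay lower in αTC1-6 than in βTC1 at 24 h. At 48 h 74.7% lay lower with cytokines than without. Centred on the median of the detected miRNAs, 4 of 8 members were higher at 48 h with cytokines than without. U6 and small nucleolar RNAs as the reference gave 4 of 8 too. mmu-miR-16 had the lowest ΔCt of the family, from -1.25 ± 0.47 (SD, n = 3) in βTC1 to 0.14 ± 0.27 in αTC1-6 after 48 h of cytokines. mmu-miR-15b ranged over the 5 condition means from 1.80 ± 0.24 to 2.83 ± 0.04. mmu-miR-195 ranged from 1.53 ± 0.35 to 2.49 ± 0.64. mmu-miR-15a lay lower in level, from 3.20 ± 0.61 to 5.04 ± 0.67, and mmu-miR-497 from 3.92 ± 0.33 to 4.89 ± 0.46. These ΔCt values are not a ranking of the 5 miRNAs, since assays differ in efficiency. Among the passenger strands, mmu-miR-15b* ran from 2.63 ± 0.66 to 4.31 ± 0.75, mmu-miR-15a* from 5.71 ± 0.71 to 8.91 ± 0.86 and mmu-miR-16* from 8.03 ± 0.73 to 11.33 ± 0.87. Neighbouring conditions in the order mostly overlapped in their samples. The exceptions were βTC1 and the next αTC1-6 condition for mmu-miR-15a* and for mmu-miR-16*.

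**Figure D1:**
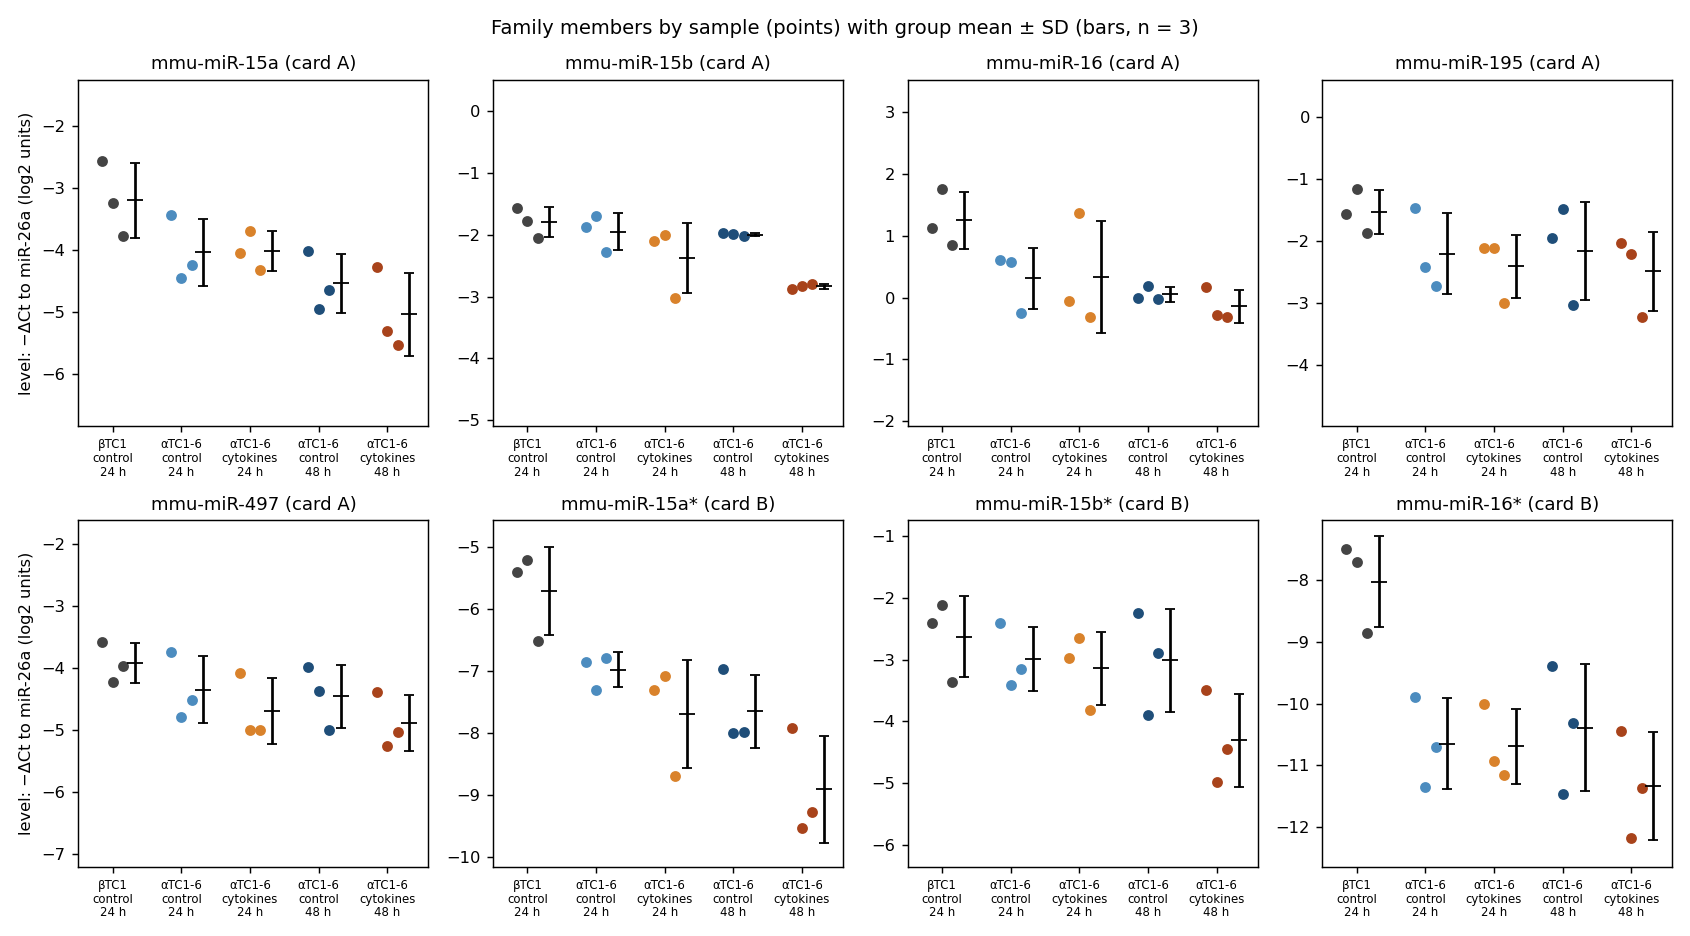
Level of each member as −ΔCt to miR-26a in log2 units (vertical axis, the same span in each panel) in the 5 conditions (horizontal axis). Points are samples and bars are mean ± SD (n = 3). For miR-16* the 3 βTC1 samples lie above all 12 αTC1-6 samples, and for miR-15b the 3 samples treated for 48 h lie close together between -2.88 and -2.79.

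The first comparison asked which miRNAs differ between the lines at steady state, with the untreated cells of 24 h. mmu-miR-16*, a passenger strand of the miR-16 hairpins, showed the largest difference of the family. Its ΔCt was 7.51, 7.72 and 8.86 in the βTC1 replicates and 9.89, 11.35 and 10.70 in those of αTC1-6. All βTC1 samples were thus at a higher level than all αTC1-6 samples, also before normalization, with a Ct of 25.9 to 26.5 against 28.4 to 28.9. The level was 6.14-fold higher in βTC1, a log2 difference of αTC1-6 over βTC1 of -2.62 (SE 0.63, 95% interval -4.18 to -1.05), and it did not pass the threshold, with an adjusted p-value of 0.0756 (limma, Benjamini-Hochberg). Over 15 alternative settings that adjusted p-value lay between 0.01 and 0.134, and it passed in 5 of them.

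mmu-miR-15a*, the passenger strand of miR-15a, had a ΔCt of 5.41, 5.20 and 6.52 in βTC1 and of 6.85, 7.31 and 6.79 in αTC1-6. These groups did not overlap either. The log2 difference was -1.27 (SE 0.53, adjusted p-value 0.250 by limma). The last αTC1-6 value is the mean of the wells that disagreed, 5.30 and 8.28, and the first of these lies within the βTC1 samples. With the first well of each duplicate the difference was -0.82 and with the second -1.72.

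The guide strand mmu-miR-16 had a ΔCt of -1.13, -1.76 and -0.85 in βTC1 and of -0.61, -0.57 and 0.26 in αTC1-6. The samples again did not overlap, and the log2 difference was -0.94 (SE 0.50, adjusted p-value 0.193 by limma). Centred on the median of the detected miRNAs in place of miR-26a, the difference was -0.87 and passed, with an adjusted p-value of 0.0463 by limma. In that setting 174 of 483 assays passed. For mmu-miR-15a the ΔCt was 2.57, 3.25 and 3.77 in βTC1 and 3.42, 4.45 and 4.24 in αTC1-6, and the groups overlapped. Its log2 difference was -0.84 (SE 0.55). mmu-miR-195 and mmu-miR-497, which come from the same locus, differed by -0.67 (SE 0.52) and -0.43 (SE 0.49). The smallest differences were those of the mmu-miR-15b guide, -0.15 (SE 0.42, 95% interval -1.20 to 0.90), and of mmu-miR-15b*, -0.36 (SE 0.55). Both strands of the miR-15b hairpin therefore had overlapping samples in the 2 lines.

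All 8 members had a lower level in αTC1-6, with a median log2 difference of -0.75, beside a median of -0.52 over all 483 assays tested, of which 61.5% lay below 0. None of the 8 members passed the threshold, whereas 30.0% of the assays did, and 1 member had an unadjusted p-value under 0.05, against 185 of the 483 assays. The samples of 3 members did not overlap between the lines, and neither did those of 46.0% of the assays with a value in every sample. The acinar miRNAs differed in the same samples (above), and their part in these differences was not tested.

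**Figure D2:**
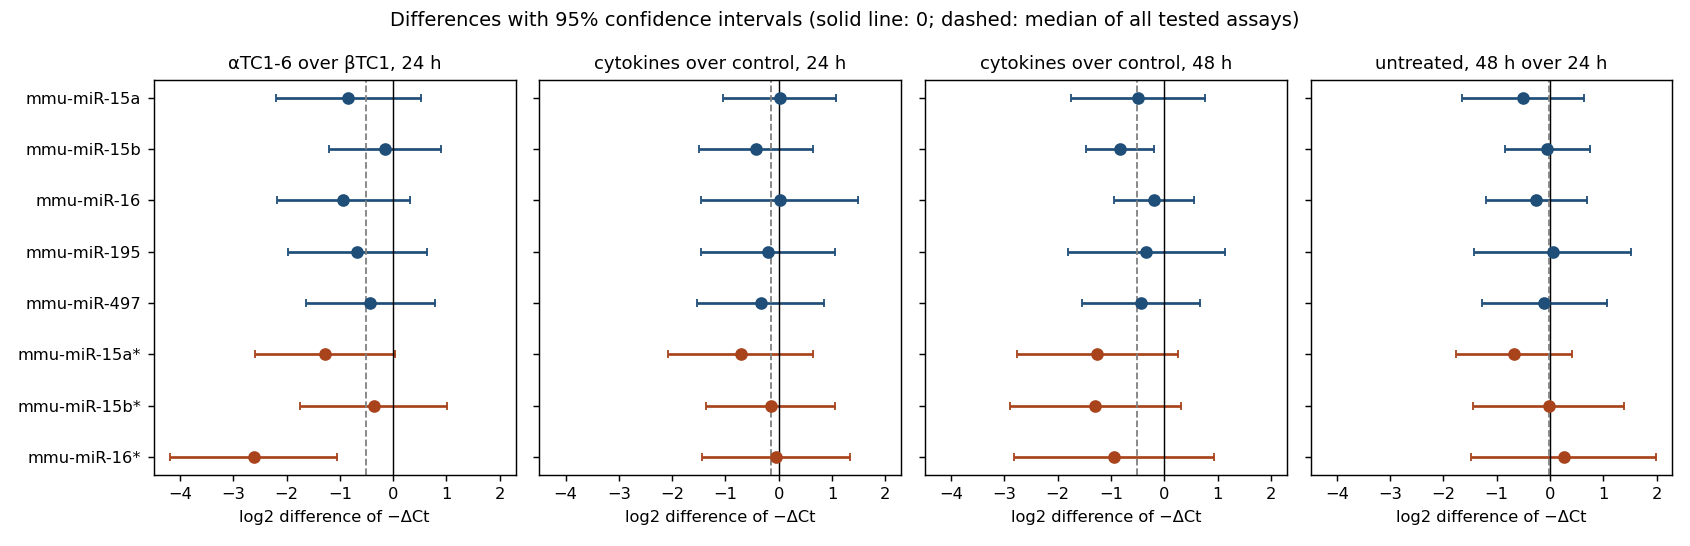
Log2 difference of −ΔCt (horizontal axis) for the 8 members (vertical axis) in 4 comparisons, as points with 95% confidence intervals from limma. The fits did not pair samples by replicate number. The dashed line is the median of all assays tested. The interval of miR-16* between the lines and that of miR-15b at 48 h leave out 0, and neither difference passed the adjusted threshold.

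After 24 h of cytokines the 95% interval of each member in αTC1-6 held 0 in the fit without the replicate number as a block. The log2 differences of treated over untreated cells were 0.02 (SE 0.42) for mmu-miR-15a, -0.43 (SE 0.42) for mmu-miR-15b, 0.02 (SE 0.58) for mmu-miR-16, -0.20 (SE 0.50) for mmu-miR-195 and -0.34 (SE 0.47) for mmu-miR-497. Those of the passenger strands were -0.72 (SE 0.54) for mmu-miR-15a*, -0.15 (SE 0.48) for mmu-miR-15b* and -0.04 (SE 0.55) for mmu-miR-16*. The median over the members was -0.18 beside -0.15 over all assays. Treated and untreated samples overlapped for 8 of 8 members, while 11.8% of the assays with a value in every sample did not overlap. Within each replicate number, the treated sample was lower in level in all 3 pairs for 2 of 8 members, mmu-miR-15b and mmu-miR-497. The same held for 26.7% of 330 assays with a Ct in all 6 samples. The pairs differed by -0.22, -0.318 and -0.741 for mmu-miR-15b and by -0.326, -0.208 and -0.485 for mmu-miR-497. With the replicate number as a block their SEs were 0.20 and 0.17, and both adjusted p-values were 0.489 by limma. None of the members passed the threshold, which 0.224% of 446 assays did and none with the replicate number as a block, and none had an unadjusted p-value under 0.05, against 21 assays. The intervals were wide. For mmu-miR-16 the interval ran from -1.45 to 1.49, so that differences of over 1 log2 unit in either direction lie within it.

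After 48 h the most distinct pattern was that of mmu-miR-15b. Its ΔCt was 1.98, 1.99 and 2.03 in untreated αTC1-6 and 2.88, 2.83 and 2.79 in treated αTC1-6. The 3 treated samples were at a lower level than the 3 untreated samples, with SDs of 0.03 and 0.04. The pairs of equal replicate number differed by -0.901, -0.837 and -0.767. In the fit without the replicate number as a block the level was 1.78-fold lower, a log2 difference of -0.83 (SE 0.25, 95% interval -1.48 to -0.19). The unadjusted p-value of limma in that fit was 0.0205, the adjusted one 0.439, and by p-value the assay ranked 16 of 342 on card A. The close agreement was one of ΔCt, not of Ct. The untreated Ct values of mmu-miR-15b were 20.95, 18.97 and 19.97 and those of miR-26a in the same samples 18.98, 16.98 and 17.95, all 6 at a decimal of 0.9 or above.

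The passenger strands had larger differences at 48 h, with more spread. mmu-miR-15b* had a ΔCt of 2.25, 3.90 and 2.89 in untreated cells and of 3.50, 4.99 and 4.44 in treated cells. The groups overlapped, and its log2 difference was -1.30 (SE 0.63). mmu-miR-15a* went from 6.97, 8.01 and 7.98 to 7.93, 9.54 and 9.28, a log2 difference of -1.26 (SE 0.59), and the lowest ΔCt among the treated samples lay below those of 2 untreated samples. mmu-miR-16* differed by -0.94 (SE 0.73), and by -1.48 to -0.45 when single samples were left out. The adjusted p-values of these 3 were between 0.366 and 0.477 by limma. The other guide strands differed by less, mmu-miR-15a by -0.50 (SE 0.49), mmu-miR-497 by -0.43 (SE 0.43), mmu-miR-195 by -0.34 (SE 0.58) and mmu-miR-16 by -0.20 (SE 0.29). The replicate number was taken to pair the samples of this comparison, but the SEs above are from the fit without it as a block. Within it, the treated sample was lower in level in 3 of 3 pairs for 7 of 8 members and in 2 of 3 for mmu-miR-16, relative to miR-26a, beside 57.4% of 411 assays with a Ct in all 6 samples that were lower in all 3 pairs. The pairs differed by -1.25, -1.09 and -1.55 for mmu-miR-15b*, by -0.96, -1.53 and -1.29 for mmu-miR-15a* and by -1.04, -0.72 and -1.06 for mmu-miR-16*. With the replicate number as a block, the adjusted p-values of these 3 were 0.107, 0.107 and 0.110 by limma.

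The sign at 48 h depended on the reference. All 8 members had a lower level in treated cells relative to miR-26a, with a median of -0.67, but the median over all 534 assays tested was -0.51 and 74.7% of them lay below 0. Centred on the median of the detected miRNAs, the median of all assays was 0.17, and mmu-miR-15a (0.18), mmu-miR-16 (0.48), mmu-miR-195 (0.34) and mmu-miR-497 (0.24) turned to a higher level. They did so too with the mean of U6 and small nucleolar RNAs as the reference. mmu-miR-15b and the 3 passenger strands stayed below 0 with these references and without any. After centring, mmu-miR-15b was at -0.16, mmu-miR-15a* at -0.58, mmu-miR-15b* at -0.62 and mmu-miR-16* at -0.26. None of the 8 members passed the threshold, which 0.562% of the assays did and none with the replicate number as a block. In the fit without that block, 1 of the members had an unadjusted p-value under 0.05, against 60 assays. The samples did not overlap for 1 member, as for 19.7% of the assays with a value in every sample.

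**Figure D3:**
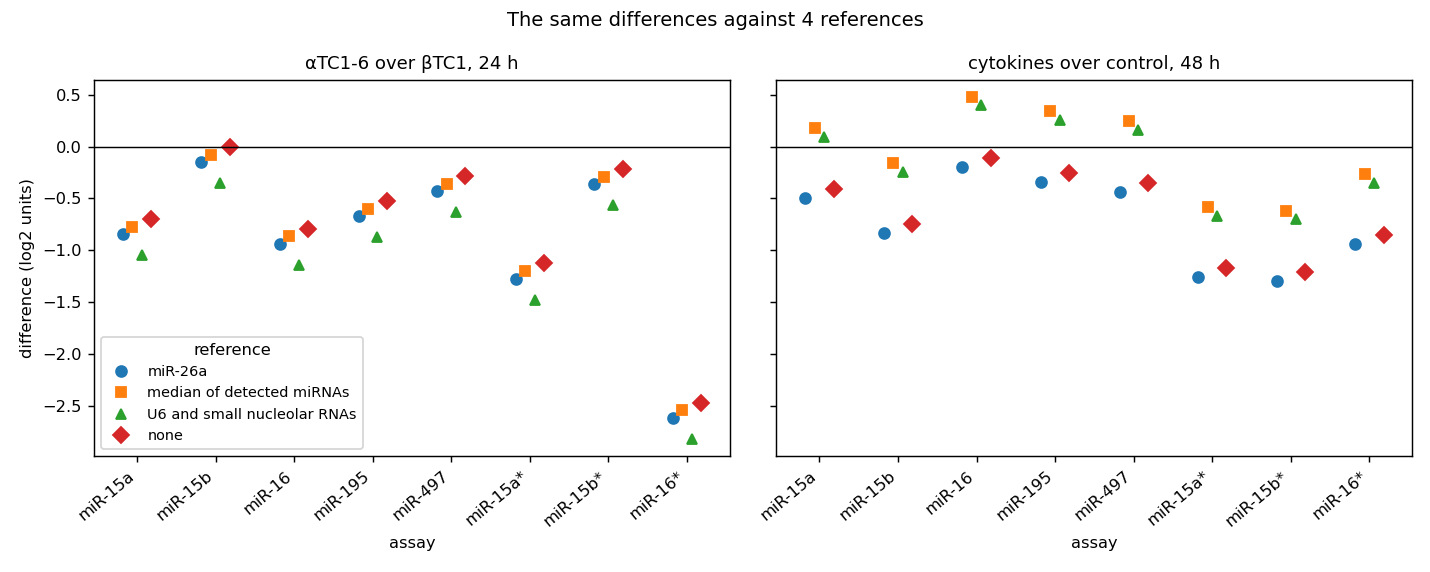
Log2 difference (vertical axis) of each member (horizontal axis) between the lines and after 48 h of cytokines, computed against miR-26a, the median of detected miRNAs, the mean of U6 and small nucleolar RNAs, and without any reference. Between the lines every point is below 0, while at 48 h the values of miR-15a, miR-16, miR-195 and miR-497 lie on both sides of 0 (miR-16 from -0.20 to 0.48).

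Time in culture was compared in untreated αTC1-6, 48 h over 24 h. The median log2 difference of the members was -0.08 beside -0.01 over all 490 assays. The largest was that of mmu-miR-15a*, at -0.67 (SE 0.43), which moved to -1.14 with the first well of each duplicate and to -0.21 with the second. mmu-miR-15a differed by -0.50 (SE 0.45). Samples overlapped for 8 of 8 members, while 13.6% of the assays with a value in every sample did not overlap. None of the members passed the threshold, which 5.92% of the assays did, and none had an unadjusted p-value under 0.05, against 43 assays. Card A had 236 to 258 assays with a Ct in the untreated samples of 24 h and 304 to 324 in those of 48 h. On card B these numbers were 174 to 188 and 182 to 189. The part of this in the differences was not tested.

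The difference of the cytokine effects, 48 h minus 24 h, was then tested as an interaction over the 4 αTC1-6 conditions. Relative to miR-26a it was below 0 for 8 of 8 members, with a median of -0.46 beside -0.33 over all 477 assays, but this sign depended on the reference. It was above 0 for 4 of 8 members after centring on the median of the detected miRNAs, for 6 of 8 with U6 and small nucleolar RNAs as reference and for 3 of 8 without normalization. mmu-miR-15b* and mmu-miR-16* stayed below 0 in all of these. The largest differences were those of mmu-miR-15b*, at -1.14 (SE 0.79), and mmu-miR-16*, at -0.90 (SE 0.93), with adjusted p-values of 0.556 and 0.586 by limma. None of the members passed, as against 0.210% of the assays, and none had an unadjusted p-value under 0.05, against 19 assays.

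Differences between members of one sample and card do not contain miR-26a. They were computed for 6 pairs in 4 comparisons, 24 in all, and tested by an exact permutation test (two-sided), which with 3 samples against 3 cannot give a p-value below 0.1. The level of mmu-miR-15b was taken relative to mmu-miR-16. Mir16-2 lies beside Mir15b on chromosome 3, but the miR-16 assay reads the strand of Mir16-1 on chromosome 14 as well. On the log2 scale the ratio was -2.49, -2.27 and -2.02 in untreated αTC1-6 at 24 h and -2.70, -3.53 and -2.91 in βTC1. All βTC1 samples were lower, by 0.79 (exact p = 0.1). At 48 h it was -1.98, -2.18 and -2.0 in untreated αTC1-6 and -3.05, -2.55 and -2.47 in treated αTC1-6. All treated samples were lower, by 0.64 (exact p = 0.1).

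Within card B, mmu-miR-15a* relative to mmu-miR-16* was 3.04, 4.04 and 3.91 in αTC1-6 and 2.10, 2.51 and 2.35 in βTC1 at steady state. The ratio was higher in each αTC1-6 sample, by 1.34 (exact p = 0.1). mmu-miR-15a* relative to mmu-miR-15b* was lower in each αTC1-6 sample than in the βTC1 samples, by 0.91 (exact p = 0.1), and with the non-normalized table these groups overlapped. With adjustment over the 24 tests, the p-value of each of these 4 is 0.533. At steady state 3 of 6 pairs did not overlap, beside 54.4% of all same-card pairs of assays with a Ct in every sample. At 48 h of cytokines it was 1 of 6 beside 16.0%, at 24 h of cytokines 0 of 6 beside 13.5%, and between untreated cells of 48 h and 24 h 0 of 6 beside 9.43%. mmu-miR-195 relative to mmu-miR-497, the pair from chromosome 11, had overlapping samples in all 4 comparisons, with condition means between 2.16 and 2.41.

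**Figure D4:**
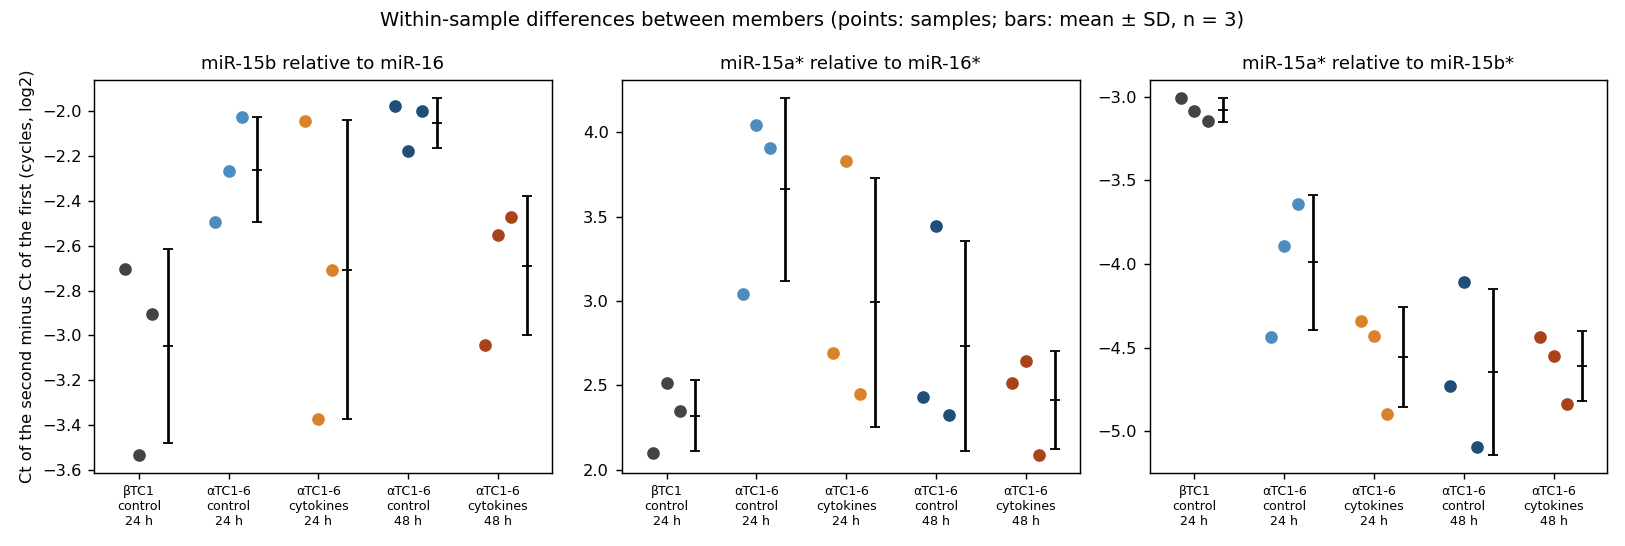
Level of one member relative to another in the same sample (vertical axis, log2 units; the scale differs between panels) in the 5 conditions (horizontal axis), with points for samples and bars for mean ± SD (n = 3). For miR-15b relative to miR-16 the βTC1 samples lie below the αTC1-6 controls of 24 h, and the αTC1-6 samples treated for 48 h lie below their own controls.

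Relatives by sequence were looked up from a list of miRNAs with the same or a similar seed, and 6 assays of it are on the cards. Guide strands are shown because the likeness of seed is the reason for the list.
miR-322: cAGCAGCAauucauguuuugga
miR-503: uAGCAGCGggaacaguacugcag
miR-103: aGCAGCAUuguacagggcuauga
miR-107: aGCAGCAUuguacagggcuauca
MiR-322 holds the seed of the family in full. MiR-503, its neighbour on chromosome X, shares the first 6 of the 7 seed bases, and bases 2 to 7 of miR-103 and miR-107 equal bases 3 to 8 of miR-15a. The other assays are the passenger strands miR-322* and miR-503*. MiR-322 had a Ct of 25.9 to 27.9 in βTC1 and of 30.2 to 31.0 in αTC1-6 at 24 h, a log2 difference of -4.09 (SE 0.68, adjusted p-value 0.00422 by limma). MiR-503 had a Ct of 27.5 to 28.2 in βTC1 and was undetermined in all 6 αTC1-6 samples of 24 h, treated or not, while at 48 h it had a Ct in all 6. Card A had 214 to 258 assays with a Ct in the αTC1-6 samples of 24 h and 304 to 337 in those of 48 h, and the part of this in the difference was not tested. The passenger strand miR-503* had a Ct of 29.0 to 31.0 in βTC1. In untreated αTC1-6 at 24 h its Ct was 35.9 to 36.0, close to the 40 of undetermined wells. It differed by -6.13 between the lines (SE 0.85, adjusted p-value 0.00848 by limma). At steady state 3 of the 6 relatives passed, all lower in αTC1-6, beside the 30.0% of all assays given above. Between untreated cells of 48 h and 24 h 1 of 6 passed, miR-503, beside 5.92%. Both calls of miR-503 rest on undetermined wells set to a Ct of 40, and over all assays the 29 calls of the latter comparison became 1 with a Ct required in every sample. With cytokines 0 of 5 tested relatives passed at 24 h and 0 of 6 at 48 h. At 48 h miR-107 differed by -1.37 (SE 0.49) and miR-103 by -0.95 (SE 0.39), beside a median of -0.51 over all assays. Their adjusted p-values were 0.480 and 0.567 by limma. MiR-322* differed by -2.175 (SE 1.24, adjusted p-value 0.396 by limma), while miR-322 (0.13), miR-503 (0.63) and miR-503* (0.98) lay above 0. The Ct of miR-322* was late, 31.8 to 34.9 in untreated and 33.9 to 36.9 in treated cells of 48 h. That of miR-503* was 33.0 to 35.9 and 32.9 to 33.8.

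The assays whose levels most resembled the guide strands were found by Pearson's r of −ΔCt over the 15 samples, among 277 assays with a Ct in all of them. These values share the reference, so r is also given after centring each sample on its median, and the 15 samples include both lines. For miR-15a the closest was its own passenger strand, miR-15a* (r = 0.901, after centring 0.691), followed by miR-30e* (0.897, after centring 0.673) and the rat assay of miR-30d* (0.894, after centring 0.575). After centring miR-15a* ranked 4, behind the rat assay of miR-20b-5p (0.707), miR-126-5p (0.701) and miR-741 (0.698). For miR-15b they were miR-191* (0.883), miR-744* (0.871) and let-7a* (0.850), whose r was between 0.12 and 0.343 after centring, when miR-673-5p ranked first (0.671). For miR-16 they were miR-338-3p (0.907), miR-32 (0.886) and miR-181a-1* (0.875), and miR-32 ranked first after centring too (0.816). For miR-195 they were miR-26b (0.841), miR-124 (0.838) and miR-340-5p (0.828), and after centring miR-124 ranked first (0.753). For miR-497 they were miR-106b (0.932, after centring 0.858), the islet miRNA miR-375 (0.915, after centring 0.558) and miR-28 (0.871). For guide strands of neighbouring genes r was 0.743 (miR-15a and miR-16), 0.661 (miR-15b and miR-16) and 0.707 (miR-195 and miR-497). After centring it was 0.438, 0.472 and 0.436. For guide strands of different gene pairs r ran from 0.402 (miR-16 and miR-497) to 0.74 (miR-15a and miR-497). After centring these values lay between -0.037 (miR-16 and miR-497) and 0.487 (miR-16 and miR-195). The miR-16 assay reads both of its genes. For miR-15b and miR-15b* r was 0.725, after centring 0.081, and for miR-16 and miR-16* 0.654, after centring 0.182.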

How the data were processed

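Cells were lysed in Trizol, and RNA was reverse transcribed and preamplified with Megaplex primer pools and read on TaqMan rodent cards A and B. The authors deposited a table of Ct values, not normalized, in cycles, and a table of ΔCt (log2 units), normalized to miR-26a. Columns of fold changes between samples were not used. Ct was recovered as ΔCt plus the Ct of miR-26a. Duplicate wells were averaged, undetermined wells kept the Ct of 40, and 7 control assays and miR-26a were left out of the tests. Any shift between the cards stays in the values of the passenger strands, since the reference is on card A. Assay sequences are not given in the sources used here, and assays were matched to RefSeq strands by name.

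Differences of −ΔCt were tested with limma 3.58.1 (lmFit, eBayes, two-sided) in R 4.3.3 on the samples compared, 3 against 3, for assays with a Ct under 40 in at least as many samples as not. P-values were adjusted by Benjamini-Hochberg within each card over all assays tested, at 0.05. The exact permutation tests and the figures used matplotlib 3.10.9, pandas 2.3.3 and numpy 2.4.6 under Python 3.11.15. The deviations of equally numbered samples from their group means correlated at 0.276 to 0.476 in the cytokine comparison of 24 h. In that of 48 h they correlated at 0.259 to 0.443. Between the lines these correlations were 0.064 to 0.095, and between untreated cells of 48 h and 24 h -0.045 to 0.238. Unequal replicate numbers were not correlated for comparison. The replicate number was taken to pair the samples of the cytokine comparisons only. The named members were all assays of the rule, the listed seed relatives and the 3 assays most like each guide strand, and the members and lists were chosen with earlier results of these data known. The number of arrays limits the precision.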

Additional observations from a re-analysis of the deposited data

How the results depend on the processing

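The number of members past the threshold was 0 in each of the 5 comparisons. Between the lines it became 2 with centring on the median (miR-16 and miR-16*), beside 174 of all 483 assays tested. It was 1 (miR-16*) with Ct values without normalization (beside 158 of 483) and with a Ct required in every sample (81 of 326). It was also 1 (miR-16*) with adjustment over both cards (136 of 483) and with 1 fit over all 15 samples (166 of 483). In the other settings, which were no filter, the U6 and small nucleolar RNA reference, a ceiling of 35 on Ct, undetermined wells left out, a prior variance that follows the mean, the non-normalized table, untreated αTC1-6 of 48 h in place of 24 h and, chosen after seeing the data, the first or the second well of each duplicate, it stayed at 0, as it did in the other comparisons under every setting. With the replicate number as a block it was 0 in all 5 comparisons, so the pairing changed no call of a member. Over all assays the block took the calls from 1 to 0 at 24 h and from 3 to 0 at 48 h of cytokines, and from 145 to 118 between the lines. Leaving out each replicate gave 0 members past the threshold in every comparison, and 4 to 10 pairs without overlap against 4 with all samples. That number was 10 without replicate 1 of untreated αTC1-6 at 24 h and 7 without replicate 2 of untreated αTC1-6 at 48 h. With fewer samples, groups overlap less by construction. Over all assays, the 145 between the lines became 81 with a Ct required in every sample and 95 with undetermined wells left out. The 29 between untreated αTC1-6 of 48 h and 24 h became 1 and 2 with these, 2 with the non-normalized table, and 0 to 1 without any single replicate of 48 h. The cytokine counts of 1 at 24 h and 3 at 48 h, and the 1 of their difference, lay between 0 and 5 under all alternatives.

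Of 884 values of single members and pairs under the alternatives, 811 kept their direction and 73 reversed, 36 of them with a replicate left out. At 24 h of cytokines, centring on the median turned miR-195 to 0.0136, miR-15b* to 0.0646 and miR-16* to 0.17. Without normalization miR-15a became -0.17 and miR-16 became -0.17, and with U6 and small nucleolar RNAs as reference both became -0.11. The second well of each duplicate gave 0.11 for miR-16*. At 48 h, centring gave 0.18 for miR-15a, 0.48 for miR-16, 0.34 for miR-195 and 0.24 for miR-497, and the U6 and small nucleolar RNA reference gave 0.0945, 0.40, 0.26 and 0.16. Leaving out single replicates, the difference between the lines lay between -0.28 and 0.014 for miR-15b. At 24 h of cytokines it lay between -0.19 and 0.32 for miR-15a, -0.50 and 0.34 for miR-16, -0.47 and 0.17 for miR-195, -0.40 and 0.18 for miR-15b* and -0.40 and 0.33 for miR-16*, and at 48 h between -0.77 and 0.0292 for miR-195. Between untreated αTC1-6 of 48 h and 24 h, centring gave 0.0561 for miR-15b, 0.0838 for miR-15b*. Ct values without normalization gave 0.0601 for miR-15b, 0.00122 for miR-497, 0.0878 for miR-15b*. U6 and small nucleolar RNAs gave 0.0142 for miR-15b, 0.0419 for miR-15b*. The second well of each duplicate gave 0.0142 for miR-15b*. With single replicates left out it lay between -0.40 and 0.42 for miR-15b*, -0.21 and 0.0828 for miR-15b, -0.24 and 0.79 for miR-16*, -0.29 and 0.48 for miR-195, -0.34 and 0.20 for miR-497. For the difference of the cytokine effects, centring gave 0.0184 for miR-15b, 0.21 for miR-16, 0.29 for miR-195, 0.33 for miR-497. Ct values without normalization gave 0.0641 for miR-16, 0.15 for miR-195, 0.18 for miR-497. U6 and small nucleolar RNAs gave 0.21 for miR-15a, 0.31 for miR-15b, 0.51 for miR-16, 0.59 for miR-195, 0.63 for miR-497, 0.18 for miR-15a*. With single replicates left out it lay between -0.54 and 0.30 for miR-16, -0.57 and 0.23 for miR-195, -0.40 and 0.21 for miR-497. The cause of these shifts was not tested.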
